A study of Mus musculus with 2 samples.

Results

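Interferon-induced genes and the transcription factors that govern them were examined in mouse cells labelled as lymphoma, on 1 array of cells grown together with endothelial cells and 1 array of cells grown in medium with serum. The set was defined by gene symbol alone. It holds the symbols that start with Ifi and a digit, Ifih, Ifit, Oas, Gbp, Irgm, Isg, Stat or Mx and a digit, the interferon regulatory factors Irf with a single digit other than Irf4, and Rsad2, Usp18, Bst2, Igtp, Ddx58 and Dhx58. In all, 67 of 18194 genes with a probe set of their own met this rule, through 96 probe sets, and each gene is represented by its probe set of highest mean intensity over the 2 arrays. The labels give neither the lymphoma line, its strain or genotype, nor where the endothelial cells came from, how long the culture lasted or any separation of the cell types before RNA was taken, and they name a medium for the serum culture alone. With 1 array per condition there is no spread between cultures, so the differences below have no test and no p-value.

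Interferons are cytokines that cells release when they sense viral nucleic acid. Their receptors activate Janus kinases, which phosphorylate STAT proteins; type I interferon assembles STATs with IRF9 into a complex that binds the interferon-stimulated response element (ISRE), while type II interferon drives a STAT dimer to the gamma-activated site (GAS). The genes switched on encode RNA sensors, enzymes that degrade or block viral RNA, membrane proteins that stop viral entry, and GTPases that attack the vacuoles of intracellular microbes. Several STATs also serve other cytokines: STAT3 that of interleukin 6, STAT5A and STAT5B those of prolactin, growth hormone and interleukin 2, and STAT6 that of interleukin 4.

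Promoter stretches with matches to these elements are shown for 5 members whose readings differed: Rsad2 was lower in co-culture, Irgm1 and Irf1 were higher, Ifitm2 was within 2-fold at a high intensity on both arrays, and Oas1a was near background on both. Each stretch is the 150 bases before the annotated start in RefSeq's GRCm38.p6 table, read 5′ to 3′ on the gene's strand. Capitals mark matches to GAAANNGAAA, the core of the ISRE, on either strand, or to TTCNNNGAA, the palindromic core of the GAS.
Rsad2, chr12:26456453-26456602, minus strand: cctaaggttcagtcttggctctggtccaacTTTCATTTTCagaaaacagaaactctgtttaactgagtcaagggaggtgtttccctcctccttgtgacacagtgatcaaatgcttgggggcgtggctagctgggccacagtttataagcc
Irgm1, chr11:48871421-48871570, minus strand: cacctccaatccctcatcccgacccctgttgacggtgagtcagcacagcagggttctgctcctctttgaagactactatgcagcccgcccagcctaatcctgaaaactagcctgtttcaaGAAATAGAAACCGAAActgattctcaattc
Irf1, chr11:53769864-53770013, plus strand: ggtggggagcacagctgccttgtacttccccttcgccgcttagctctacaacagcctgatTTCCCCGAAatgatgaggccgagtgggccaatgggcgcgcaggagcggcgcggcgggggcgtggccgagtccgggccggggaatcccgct
Ifitm2, chr7:140955962-140956111, minus strand: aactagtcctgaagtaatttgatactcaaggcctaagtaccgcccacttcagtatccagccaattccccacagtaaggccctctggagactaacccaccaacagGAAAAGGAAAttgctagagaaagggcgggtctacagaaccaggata
Oas1a, chr5:120907526-120907675, minus strand: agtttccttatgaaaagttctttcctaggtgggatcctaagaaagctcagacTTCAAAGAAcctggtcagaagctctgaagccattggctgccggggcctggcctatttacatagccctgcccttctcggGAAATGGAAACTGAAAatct

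In Rsad2 the capitals mark 1 ISRE core, on the opposite strand, beginning 120 bases before the start, and in Ifitm2 1 core beginning 46 bases before it. Irgm1 has 2 overlapping ISRE cores, beginning 30 and 24 bases before the start. Oas1a has 2 overlapping ones at 20 and 14 bases and a GAS core at 98 bases. Irf1 has a GAS core at 90 bases and no ISRE core in this stretch.

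RefSeq's table of promoter windows, which run from 250 bases before to 50 bases after a start, held 54 of the 67 members. An ISRE core was present in at least 1 window of 26 of these 54 members (48.1%), against 3.99% of all 27025 genes in the table. A GAS core was present in 14 members (25.9%), against 9.55% of all genes. Both matches can fall in the same window, and a match is a description of letters and not of binding. Of the 26 members with an ISRE core, 12 were above the floor on at least 1 array. Of these, 1 was higher in co-culture by at least 2-fold, 2 were lower by as much and 9 lay within 2-fold. Of 16 measured members with no ISRE core in their windows, 2 were higher and 5 lower. Among all measured genes the shares past 2-fold were 4.60% higher and 10.1% lower. With so few members, these counts are not read as a result about the element. The other 14 members with a core were below the floor on both arrays.

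The floor, an intensity of 44.3, is the median of all values of both arrays. Values below it were raised to it before the log2 difference, co-culture minus serum, was taken, so a fold against such a value is a lower bound. Of the 67 members, 34 (50.7%) exceeded the floor on 1 or both arrays and count as measured, against 63.4% of all genes. Leaving out the STATs and IRFs, 24 of 54 (44.4%) were measured. An intensity of 200 on at least 1 array was reached by 18 members (26.9%) and by 46.5% of all genes. Probe sets differ in how strongly they bind, so an intensity is set here against the same probe set on the other array and not against that of another gene.

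**Figure D1:**
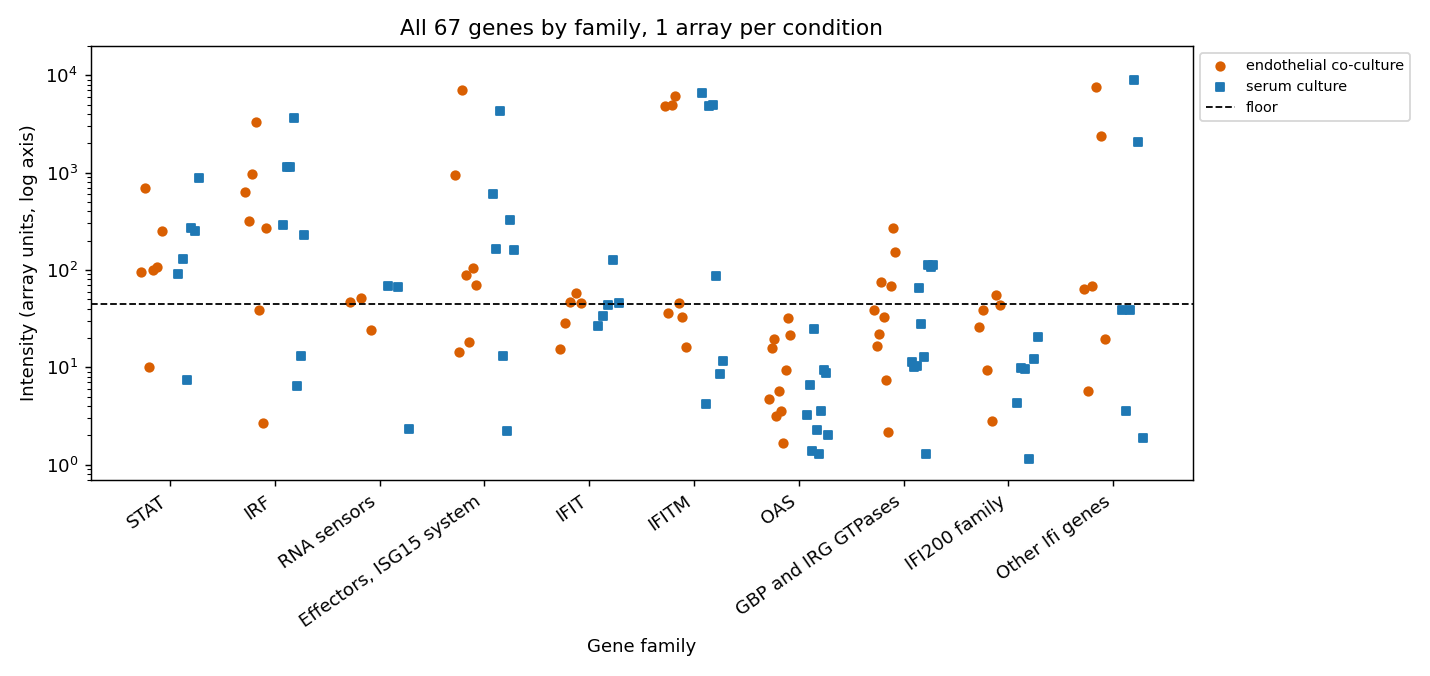
Intensity on a log axis of all 67 genes, by family, with the endothelial co-culture array as circles on the left and the serum culture array as squares on the right of each family; each point is 1 gene on 1 array and the dashed line is the floor of 44.3. All 10 OAS genes lie below the floor on both arrays, while 3 IFITM genes lie at 4866 or more on both.

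Relative to the serum array, 4 measured members were higher by at least 2-fold on the co-culture array (Stat3, Irgm1, Irf1 and Mx1) and 8 were at least 2-fold lower (Isg20, Irf2, Stat6, Rsad2, Stat5a, Stat5b, Usp18 and Ifit2). These are 11.8% and 23.5% of the 34, against 4.60% and 10.1% of all 11543 measured genes. The median log2 difference was 0.01 in the 34 members and -0.06 in all measured genes. Among the 18 members that reached 200, 3 were higher and 5 lower (16.7% and 27.8%), against 3.84% and 10.6% of the 8454 genes that reached it. The STATs and IRFs gave 2 of the 4 higher and 4 of the 8 lower members, from 10 measured ones, and the other families gave the rest from 24. Scaling the arrays to the hybridisation spikes left 2 higher members and 8 lower ones, since Irf1 (0.93 on the log2 scale) and Mx1 (0.82) came to lie within 2-fold.

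Error could be gauged from different measured probe sets of 1 gene, by the pooled within-gene SD of their log2 differences. It was 0.59 in 4786 genes whose brightest probe set had a mean intensity of 200 or more. In 694 genes whose brightest probe set lay below 200 it was 0.64. Dimmer probe sets of bright genes are included, and values below the floor were raised to it first, which shrinks differences of dim probe sets. The SD covers hybridisation and probe error and not the spread between cultures. Of the 12 members past 2-fold, Irf1 (log2 difference 1.12), Mx1 (1.02), Ifit2 (-1.14) and Usp18 (-1.20) lay within 0.2 of the limit. The Mx1 value is a lower bound, since its serum reading was below the floor. With the floor at percentile 25 of all values it was 2.78, from a serum reading near background. The ratio of 3′ to 5′ intensity, a sign of RNA length, was lower on the co-culture array for beta-actin (2.05 in co-culture, 3.56 in serum), Gapdh (1.88 and 2.54) and Tfrc (5.03 and 13.2). Its part in any difference given here was not tested.

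**Figure D2:**
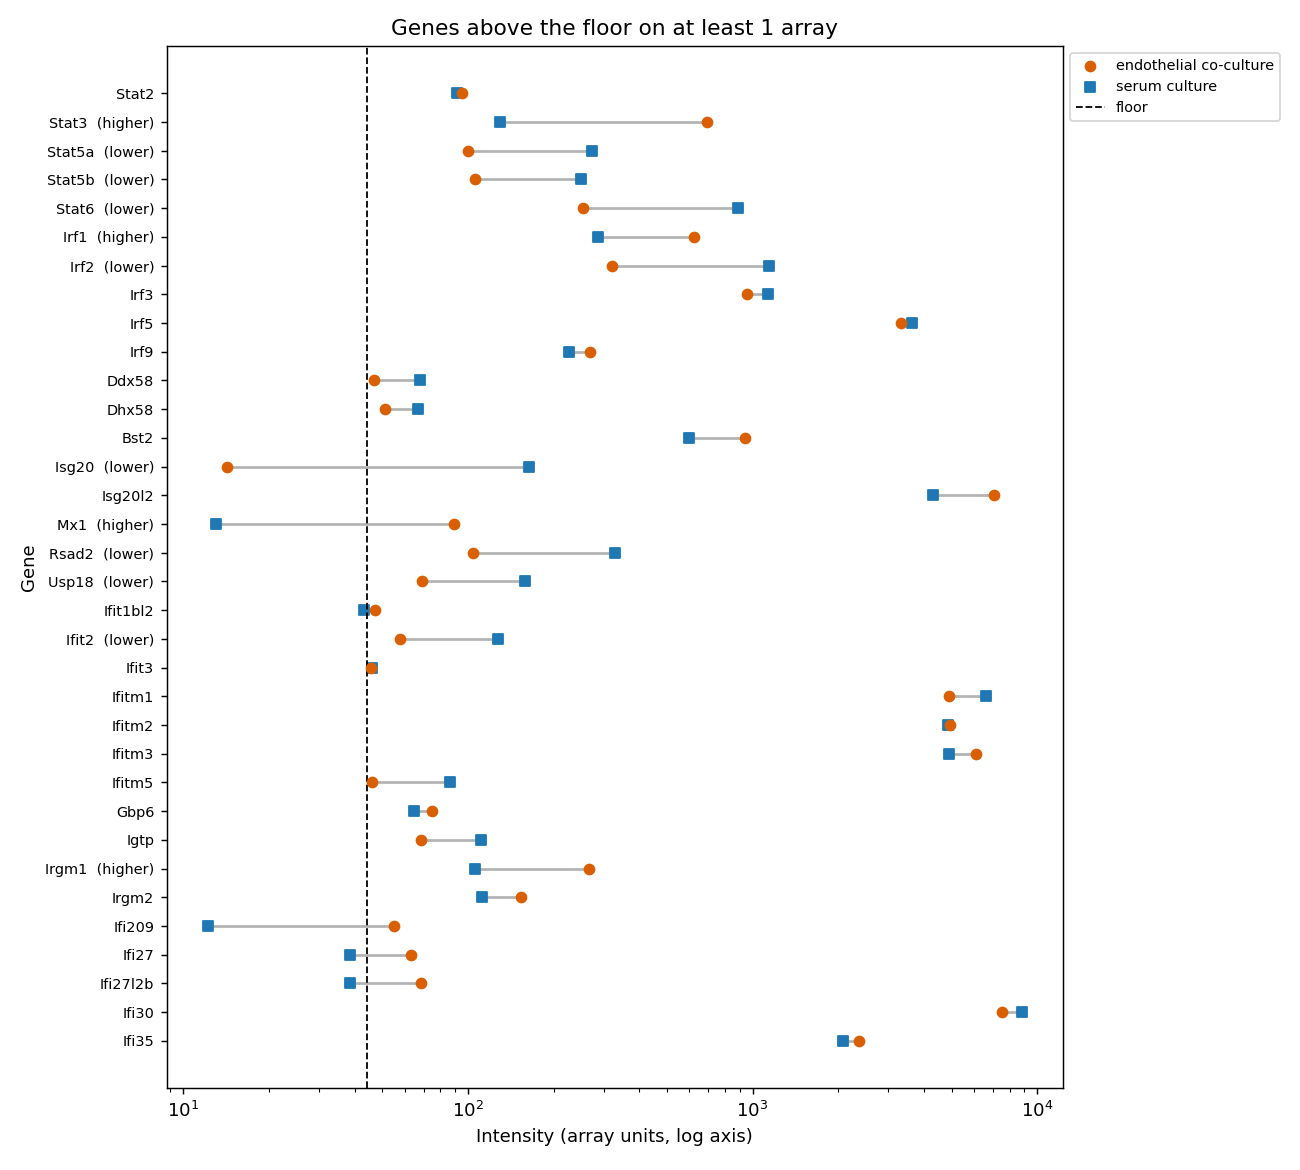
Intensity on a log axis of the 34 genes above the floor on at least 1 array, ordered by family from the STATs at the top, with co-culture as circles, serum culture as squares and a grey line joining the arrays; the dashed line is the floor. Stat3 shows a wide gap to the right (691 in co-culture, 129 in serum), and Irf2 and Stat6 show wide gaps to the left.

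Among the STATs, Stat3 was higher in co-culture while Stat5a, Stat5b and Stat6 were lower. Stat3, the transducer of the interleukin 6 family, had an intensity of 691 on the co-culture array and 129 on the serum array, a 5.34-fold higher value. It has 4 probe sets, and the other 3 gave 281 in co-culture against 47.2 in serum, 70.4 against 10.6, and 34.9 against 3.18. All 4 Stat3 probe sets were therefore brighter in co-culture, the last of them with both values below the floor.

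Stat6, the transducer of interleukin 4, had 253 in co-culture and 888 in serum, a 3.51-fold lower value. Its second probe set gave 72.5 in co-culture and 92.4 in serum, lower by 0.35 on the log2 scale and so within 2-fold. Stat5a had 100.5 in co-culture and 272 in serum (2.71-fold lower), and Stat5b had 106 in co-culture and 249 in serum (2.34-fold lower). The 2 genes lie side by side in the genome and are close copies of each other, and each has a second probe set that stayed below the floor on both arrays, so neither difference has a second measured probe set beside it. With the mean over probe sets, Stat5a and Stat5b had log2 differences of -0.72 and -0.61. That mean counts the second probe set at 0, since both its values were raised to the floor. The smaller sizes therefore add no second reading. Stat2, the STAT of type I and III interferon signalling, was within 2-fold (95.2 in co-culture, 91.4 in serum). Stat4, a transducer of interleukin 12, was below the floor on both arrays (10.2 and 7.41).

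Of the IRFs, Irf1 was higher in co-culture and Irf2 was lower. Irf1, an activator induced by interferon gamma, had an intensity of 625 on the co-culture array and 287 on the serum array (2.18-fold higher). Irf2, which binds the same sites and mostly represses them, had 321 in co-culture and 1146 in serum (3.57-fold lower). Each gene has 1 probe set, so no second probe set stands beside either value. The Irf2 probe set carries the mark of sequence shared between transcripts of different genes, and the Irf1 probe set the mark of several transcripts of 1 gene.

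The other measured IRFs lay within 2-fold. Irf3, which is activated by phosphorylation after viral RNA or DNA is sensed, had 956 in co-culture and 1133 in serum. Of its 3 other probe sets, 1 was lower by 1.06 on the log2 scale and the others had -0.14 and 0.15. Irf5, which acts downstream of Toll-like receptors, had 3317 in co-culture and 3630 in serum, although its second probe set was near the floor (44.5 and 34.9). Irf9, the DNA-binding part of the type I interferon complex, had 268 in co-culture and 226 in serum. Irf7, the factor that amplifies interferon alpha production, and Irf8, a factor of myeloid and B cells, were below the floor on both arrays, at 38.8 and 2.67 in co-culture and 6.42 and 13.1 in serum.

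**Figure D3:**
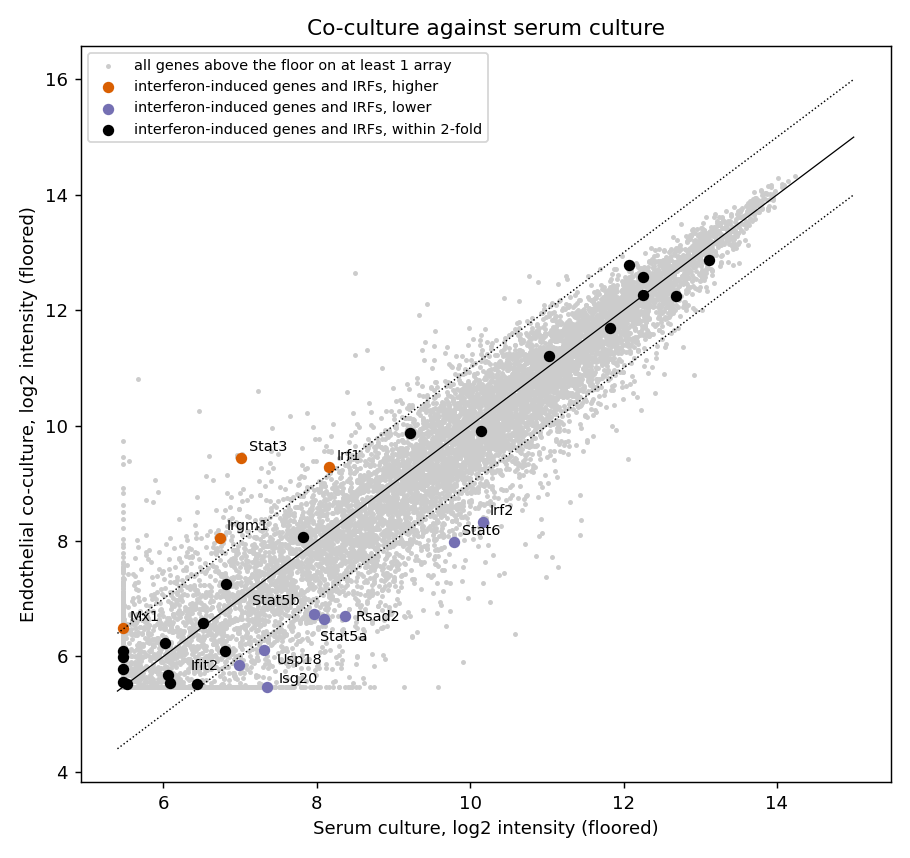
Log2 intensity after the floor, co-culture (vertical axis) against serum culture (horizontal axis), with the 11543 measured genes in grey and the 34 measured interferon-induced genes and IRFs coloured as higher or lower by at least 2-fold, or within 2-fold; solid and dotted lines mark equality and 2-fold. Stat3 stands farthest above the line of equality among the members, and the 8 lower members lie below the lower dotted line.

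Of 6 measured genes among the antiviral effectors and the ISG15 system, 1 was higher and 3 were lower in co-culture by at least 2-fold, and of 3 measured IFIT genes 0 were higher and 1 was lower, beside the shares of all genes given above. Rsad2 (viperin), which makes a chain-terminating nucleotide, had 104 in co-culture and 329 in serum (3.16-fold lower). Its second probe set had 87.4 in co-culture and 188 in serum (2.15-fold lower), and the third was below the floor on both arrays. Usp18, which strips ISG15 from proteins and damps the type I receptor, had 69.3 in co-culture and 159 in serum (2.29-fold lower). Isg20, an exonuclease that degrades viral RNA, had 14.3 in co-culture, below the floor, and 164 in serum (at least 3.70-fold lower). Ifit2, which binds RNA and restrains translation, had 57.9 in co-culture and 127 in serum (2.20-fold lower).

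Mx1 went the other way. This dynamin-like GTPase, which blocks influenza virus, had 89.6 in co-culture and 13.1 in serum (at least 2.02-fold higher), while its relative Mx2 was below the floor on both arrays (17.99 and 2.19). Bst2 (tetherin), which holds budding virus at the cell surface, was within 2-fold, at 939 in co-culture and 597 in serum. Isg20l2, an exonuclease named for its likeness to Isg20 and known for ribosome biogenesis, had 7042 in co-culture and 4300 in serum, also within 2-fold.

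The remaining IFIT genes were below the floor or just above it. Ifit3 had 45.8 in co-culture and 46.04 in serum, and Ifit1bl2 had 47.4 and 43.2. Ifit1 and Ifit1bl1 were below the floor on both arrays, between 15.5 and 28.6 in co-culture and between 26.7 and 33.7 in serum. Ifit2 was thus the 1 IFIT gene to exceed 100 on either array.

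Of 7 IFITM genes, whose proteins sit in membranes, 4 were measured and all 4 lay within 2-fold. So did 9850 of all 11543 measured genes, and the 4 are not read as a result about the family. Ifitm1, Ifitm2 and Ifitm3, which hinder the fusion of viruses, reached high intensities on both arrays. Ifitm1 had 4880 in co-culture and 6601 in serum, Ifitm2 had 4937 and 4866, and Ifitm3 had 6116 and 4900. Their log2 differences, in that order, were -0.44, 0.02 and 0.32, all smaller than the SD between probe sets of 1 gene. Ifitm5, known from bone-forming cells, was near the floor in co-culture (46.2, against 86.3 in serum). Ifitm6, Ifitm7 and Ifitm10 were below the floor on both arrays, between 16.1 and 36.1 in co-culture and between 4.17 and 11.6 in serum. IFITM genes are similar in sequence, so their probe sets may share target RNA.

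All 10 genes of the oligoadenylate synthetases, which make the messenger that activates RNase L, were below the floor on both arrays: Oas1a, Oas1b, Oas1c, Oas1e, Oas1f, Oas1h, Oas2, Oas3, Oasl1 and Oasl2. They ranged from 1.68 to 32.04 in co-culture and from 1.29 to 24.8 in serum. For comparison, 27 control probe sets for bacterial transcripts reached at most 21.7 in co-culture and 21.6 in serum. The cytosolic RNA sensors were dim too. Ddx58 (RIG-I) had 46.7 in co-culture and 68.1 in serum, Dhx58 (LGP2) had 51.1 and 66.8, and Ifih1 (MDA5) was below the floor (24.0 and 2.33).

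Among the GTPases induced by interferon gamma, Irgm1 was higher in co-culture, with 266 on the co-culture array and 106 on the serum array (2.51-fold), by its 1 probe set. Irgm1 regulates the other immunity-related GTPases and autophagy. Irgm2 (153 in co-culture, 113 in serum) and Igtp, also called Irgm3 (68.5 and 111), were within 2-fold, with opposite signs. The guanylate-binding protein Gbp6 had 75.03 in co-culture and 64.9 in serum, yet its second probe set was lower by 1.18 on the log2 scale (24.98 and 100.7). Gbp2, Gbp2b, Gbp3, Gbp7, Gbp8 and Ifi47 were below the floor on both arrays, between 2.17 and 38.9 in co-culture and between 1.28 and 28.1 in serum.

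Of the IFI200 genes, whose proteins bind DNA, only Ifi209 was above the floor, in co-culture alone (55.0, against 12.2 in serum). Ifi202b, Ifi203, Ifi204, Ifi207 and Ifi213 were below it, at 2.82 to 44.0 in co-culture and 1.15 to 20.5 in serum. Ifi30, a lysosomal thiol reductase that prepares antigens, was bright on both arrays (7501 in co-culture, 8837 in serum). Ifi35, a partner of the NMI protein, had 2372 in co-culture and 2079 in serum, and its 2 other probe sets had log2 differences of -0.27 and 0.36. Ifi27 (63.4 in co-culture, 38.5 in serum) and Ifi27l2b (68.3 and 38.7) were just above the floor in co-culture, and Ifi27l2a and Ifi44l were below it on both arrays.

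The 33 members below the floor on both arrays were not split evenly in raw intensity: 25 of them (75.8%) read higher in co-culture, with medians of 16.5 in co-culture and 7.41 in serum. The same held for 67.8% of all 6651 genes below the floor on both arrays, with medians of 16.5 and 9.65. The low end of the co-culture array was thus brighter as a whole, and these readings are given as values and not as differences.

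**Figure D4:**
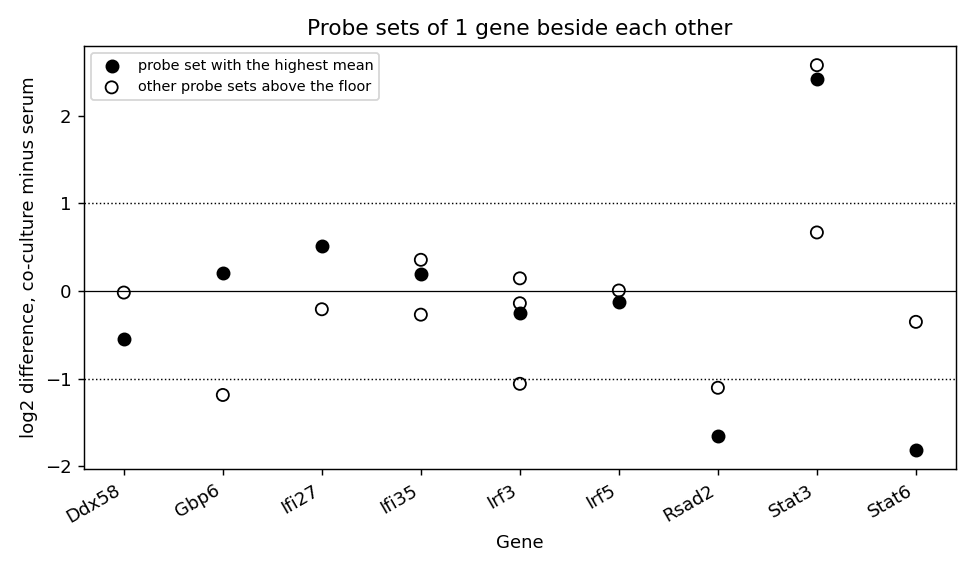
Log2 difference, co-culture minus serum, of each probe set above the floor for the 9 genes with more than 1 such probe set; filled circles are the probe sets with the highest mean and open circles the others, and dotted lines mark 2-fold. The probe sets of Stat3 and of Rsad2 lie on 1 side of 0, whereas those of Gbp6, Ifi27, Ifi35, Irf3 and Irf5 lie on both sides.

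Of the 12 members past 2-fold, Stat3, Stat6 and Rsad2 had another measured probe set, and in all 3 genes the others moved in the same direction. The plot of probe sets shows how far they differed in size: in Stat3 from 0.67 to 2.58 on the log2 scale. The remaining 9 calls rest on 1 measured probe set each.

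Upstream of these genes, the receptors and kinases of the pathway lay within 2-fold. Ifnar1 and Ifnar2, the chains of the type I receptor, had 592 and 271 in co-culture and 555 and 269 in serum. Ifngr1 and Ifngr2, the chains of the type II receptor, had 119 and 126 in co-culture and 111 and 162 in serum. Of 11 interferon and receptor genes 7 were measured and 0 passed 2-fold. Among all measured genes 4.60% were higher and 10.1% lower by as much. With so few genes, the 0 is not read as a result about the list. Of the ligands Ifnb1, Ifng, Ifna2 and Ifna4 stayed under the floor on both arrays, while Ifna1 was above it in co-culture alone (84.7, against 19.03 in serum).

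The kinases that act on STATs had small differences as well. Jak1 had 535 in co-culture and 669 in serum, Jak2 had 382 and 515, and Tyk2 had 148 and 214, so all 3 were within 2-fold and lower in co-culture by their log2 differences of -0.32, -0.43 and -0.53. Of 16 kinase and feedback genes 13 were measured and 0 passed 2-fold, against 4.60% higher and 10.1% lower among all measured genes. This list too is short, and the 0 is not read as a result about it. The phosphatase Ptpn11 had 5385 in co-culture and 5437 in serum, although its 2 other probe sets had log2 differences of 1.48 and 2.57, and the phosphatase Ptpn2, which dephosphorylates Janus kinases and STATs, had 2755 and 2635. Socs3, a feedback inhibitor that STAT3 is known to induce and a gene singled out after its values were seen, had 224 in co-culture and 167 in serum.

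Of 15 genes of nucleic acid sensing 11 were measured, and these lay within 2-fold by their chosen probe sets. The shares of all measured genes past 2-fold are given below. Another probe set of the DNA sensor Cgas had a log2 difference of 1.201, however, and another of the kinase Irak1 had -1.24. The kinase Tbk1, which phosphorylates IRF3, had 1806 in co-culture and 1582 in serum, and the ubiquitin ligase Trim25, which activates RIG-I, had 1411 and 1277. Of 52 further interferon-stimulated genes outside the set, 36 were measured, of which 1 passed 2-fold upward and 5 downward in co-culture (2.78% and 13.9%), near the 4.60% and 10.1% of all measured genes. The median log2 difference was -0.06 in the list and -0.06 in all measured genes. Cd274, the checkpoint ligand PD-L1, was the higher one (167 in co-culture, 79.4 in serum).

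The 5 lower ones were Ly6e, a surface protein that affects viral entry (71.2 in co-culture, 194 in serum), Tor3a, an ATPase of the endoplasmic reticulum (971 and 2393), the RNA helicase Mov10 (122 and 286), the giant ubiquitin ligase Rnf213 (302 and 662) and the peptide transporter Tap1 (24.6 and 94.5). Another probe set of Rnf213 went the other way, with a log2 difference of 0.65, while both others of Tor3a were lower. Of genes shared with antigen presentation, B2m had 10401 in co-culture and 11475 in serum, and the immunoproteasome subunit Psmb10 had 3454 and 2329, both within 2-fold.

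The labelled cell types were checked against their markers. Of 7 B-lineage genes, 2 were measured: Blk (126 in co-culture, 26.96 in serum, at least 2.84-fold higher) and Ebf1 (85.3 and 161). Neither array had Cd79a, Cd79b, Pax5, Ms4a1 or Cd22 above the floor, and the summed intensity of the list was 294 in co-culture and 254 in serum. Of 8 leukocyte genes 3 were measured, with sums of 303 and 355, among them Cd53 (64.3 in co-culture and 139 in serum, 2.17-fold lower) and Coro1a (125 and 75.5). Ptprc, the CD45 antigen, lay under the floor (3.14 in co-culture, 21.5 in serum). Most genes that define B cells were thus below the floor, although both samples carry the lymphoma label, and the groups are called here by their culture labels.

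Most markers of other cells were below the floor or close to it on both arrays. Of 10 endothelial genes 2 were measured, Egfl7 (532 in co-culture, 473 in serum) and Eng (58.5 and 36.5), while Pecam1, Cdh5, Kdr, Tek and Tie1 were below the floor on both; the sums were 812 and 653. Of 8 macrophage and dendritic genes 3 were measured, with sums of 287 in co-culture and 136 in serum, among them Cd68 (70.5 and 87.6) and Adgre1 (65.9 and 7.39). Of 8 fibroblast genes 5 were measured, with sums of 412 and 355, among them Col1a1 (81.03 and 75.7) and Pdgfra (57.4 and 92.2). The sums of all marker lists, here and above, include genes below the floor on both arrays. Readings there were brighter in co-culture as a whole, so the sums are given as values and not as differences. None of the genes of these lists was listed at 0. Their part in the differences of the interferon-induced genes was not tested, and fewer cells of a type cannot be told apart from less RNA per cell.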

How the data were processed

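Per the labels' protocols, total RNA was amplified from its poly(A) ends to cRNA carrying biotin, which was read on arrays of 1 colour. The authors deposited 1 linear intensity per probe set and array, for 45101 probe sets. Which software, background correction or normalization made them is not given in the sources used here. Both arrays had the same mean after trimming 2% at each end (500), while their medians were 50.7 in co-culture and 36.9 in serum. Gene names came from the array's platform annotation. A single symbol was listed for 34958 of them, several for 932 and none for 9211. Probe sets with several symbols named no gene, and 10 of them, each listing a symbol that fits the rule, were left out. All 67 symbols were the same in RefSeq's GRCm38.p6 gene table.

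From the deposited intensities, a floor (44.3) and log2 differences were computed with Python 3.11.15, numpy 2.4.6 and pandas 2.3.3. With 1 array per group no test between groups was made, and the number of arrays limits the precision. Counts of members past 2-fold were set beside those of all genes. The steps were tested on simulated data. All measured members are named, and from each other list the genes past 2-fold and the 2 with the highest mean, beside the receptors Ifnar1, Ifnar2, Ifngr1 and Ifngr2 and the kinases Jak1, Jak2 and Tyk2. The members and lists were chosen with earlier results of these data known. The alternatives tried were 10, and promoters came from RefSeq.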

Additional observations from a re-analysis of the deposited data

How the results depend on the processing

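The 34 measured members, of which 4 were higher and 8 lower in co-culture at a median log2 difference of 0.01, were recomputed under 10 alternatives. A floor at percentile 25 (an intensity of 12.8) gave 57 measured members, 13 higher and a median of 0.24, against 0.04 in all measured genes. A floor at 200 gave 18 measured, 2 higher (Stat3 and Irf1) and 2 lower (Irf2 and Stat6), and a floor at percentile 75 (389) gave 13, 0 and 2. Scaling to the hybridisation spikes gave 2 higher members and a median of -0.17, against -0.26 in all measured genes. Quantile normalization gave 3 higher and 9 lower members and a median of -0.17, against -0.10 in all measured genes. Under it 511 were higher and 1205 lower of all 11470 measured genes. The mean over probe sets gave 5 lower members. It includes probe sets below the floor on both arrays, whose difference is 0 once both values are raised to the floor. Another alternative left out probe sets marked as shared between genes or between several transcripts of 1 gene. It gave 2 higher and 5 lower members and a median of -0.13, against -0.04 in all measured genes. Among the 5 was Irf3 (-1.06), which lay within 2-fold by its chosen probe set. That step removes the single probe sets of Irf1, Irf2, Isg20 and Mx1 and both of Stat5a and of Stat5b. Of these, only the Irf2 probe set carries the mark of sequence shared between different genes. The others carry the mark of several transcripts of 1 gene. Of all measured genes, 2053 were higher and 1619 lower of 16135 at percentile 25, 143 and 399 of 7221 at percentile 75, 221 and 662 of 8454 at 200, 881 and 1227 of 11543 with a pseudocount of 16, 332 and 1589 of 11230 with the spikes, 413 and 653 of 11560 with the mean over probe sets and 551 and 992 of 10091 without shared probe sets, against 531 and 1162 of 11543. No named member past 2-fold changed sign where it had a value. A floor or a pseudocount cannot reverse a sign, and the spike scaling shifts a log2 difference by no more than -0.19. For genes with 1 measured probe set the unchanged sign was therefore largely fixed in advance. Stat3 stayed past 2-fold in 9 of 10 alternatives, Stat6 in 9 of 10, Irf2 in 9 of 9, Rsad2 in 7 of 9, Irgm1 in 8 of 9, Usp18 in 8 of 8, Irf1 in 7 of 9, Ifit2 in 7 of 8, Isg20 in 7 of 7, and Mx1, Stat5a and Stat5b in 5 of 7 each. These counts leave out alternatives in which a gene had no value. Irf1, Irf2, Irgm1, Mx1, Isg20, Usp18 and Ifit2 have 1 probe set each. For them the mean over probe sets and the second brightest probe set repeat the main value, so those 2 passes were fixed in advance. For Irgm1, Usp18 and Ifit2 the floor at percentile 25 and the step without marked probe sets repeat it too. Those passes were fixed as well. The counts therefore do not rank the genes by how well they held. By its second probe set Stat6 had -0.35. Other causes of these shifts were not tested. No paired analysis was possible because each group has 1 array.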
